A study of Mus musculus with 12 samples.

Results

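Neutrophils are short-lived white blood cells that leave the bone marrow under the growth factor G-CSF, follow CXC chemokines through the chemokine receptor CXCR2 into inflamed or tumor tissue, and carry granules filled with antimicrobial proteins. In tumors, the chemokines are made by the malignant epithelium, the stroma and myeloid cells, and several of the granule proteins are also made by epithelial cells, in the mammary gland above all lactoferrin and lipocalin-2. The 9 genes described here cover these roles: the CXCR2 ligands Cxcl1, Cxcl2 and Cxcl5, the growth factor gene Csf3, the receptors Cxcr2 and Csf3r, the calcium-binding protein gene S100a8, and the granule protein genes Lcn2 and Ltf. They were chosen by name, and all 9 were found among the 750 genes of the values table.

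The tumors came from the K14-Cre;Brcaf/fTrp53f/f model of triple negative breast cancer, in which Cre driven by the keratin 14 promoter deletes Brca1 and Trp53 in epithelium. They were grown in the mammary fat pad of females of the matched FVB/129P2 background and collected 3 days after treatment began, so every group shared the deletions, the host strain and the time. Vehicle tumors received DMSO in saline into the peritoneum and saline into the tumor. Olaparib, a PARP inhibitor, was given at 50 mg/kg daily into the peritoneum, with saline into the tumor. ADU-S100, an agonist of the cytosolic DNA sensor pathway protein STING, was given as 50 μg in 1 injection of 40 μl into the tumor on the first day, with DMSO into the peritoneum. The combination group received both drugs. Each of the 4 groups held 3 tumors, known by number: 1269, 1529 and 1536 for vehicle, 1506, 1512 and 1513 for ADU-S100, 1510, 1517 and 1521 for olaparib, and 1251, 1270 and 1539 for the combination. The animals' age was not given, and the labels do not state that each tumor came from a separate mouse or donor tumor, so p-values measure the spread between these tumors.

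RNA (100 ng per tumor) from a piece of snap-frozen tissue was counted with fluorescent barcoded probes on the nCounter platform, and levels below are the deposited normalized counts. Recovered counts over all genes totaled 372390 to 1519471 in 11 tumors and 106206 in olaparib tumor 1517, where 1 count equaled 10.5 normalized counts against 0.589 to 2.85 elsewhere. The totals were 372390 to 683982 in ADU-S100 tumors (1 count equaled 1.43 to 2.85) and 1339258 to 1491854 in combination tumors (0.810 to 0.824). Between these groups, depth and scaling thus differed together with treatment. Vehicle tumors totaled 632152 to 1519471 (0.682 to 1.49). Tumor 1517 also had the highest summed level of 4 endothelial markers, 16893 against 351 to 5881 in the other 11. Of 3 epithelial markers, Epcam was lowest there (4580 against 5759 to 15844), Muc1 highest (1981 against 81.0 to 970) and Cdh1 within the range of the others. The labelled breast tumor tissue showed its epithelial markers Epcam, Cdh1 and Muc1 in all 12 tumors, with summed levels of 10802 to 22177.

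Lcn2 stood apart from the other 8 genes by its level. Lcn2 encodes lipocalin-2, a siderophore-binding protein of neutrophil specific granules that is also secreted by epithelial cells under inflammatory stimuli. It was the most counted of all 750 genes in 11 of 12 tumors, with 11% to 25.9% of all recovered counts, and ranked 14 in tumor 1517, with 1.18%. Its median of 156705 normalized counts was 4.12 times the next highest median, 37991 for the osteopontin gene Spp1. These ranks compare probe counts, and probes can differ in efficiency, so they do not rank transcripts.

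**Figure D1:**
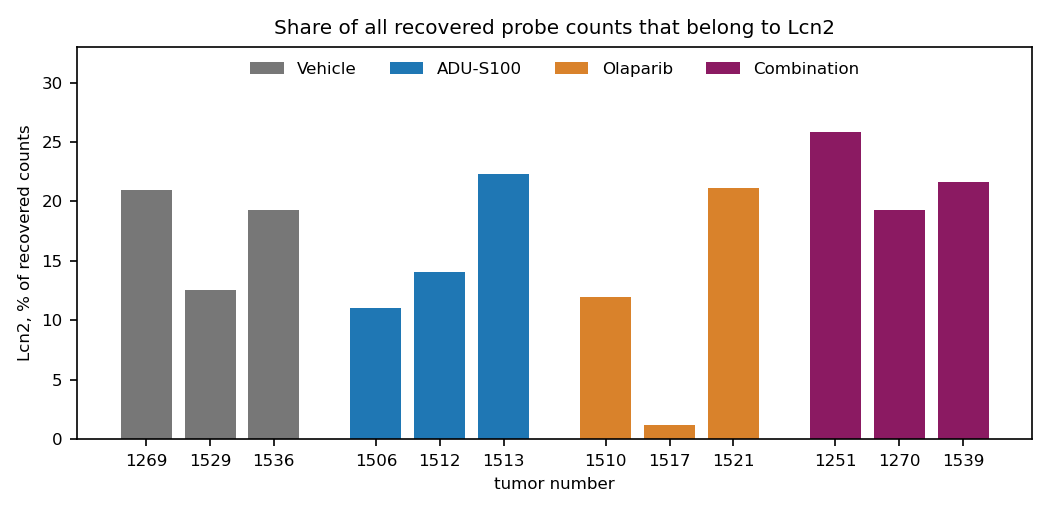
The share of all recovered probe counts that belonged to Lcn2 (vertical axis, percent, from 0) in each of the 12 tumors, by tumor number and coloured by treatment. Tumor 1517 stands at 1.18%, and the other 11 lie between 11% and 25.9%.

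The remaining 8 genes were far lower. S100a8 had a median of 1660 normalized counts over the 12 tumors, Cxcl1 488 and Cxcl5 134. Csf3r, Ltf, Csf3, Cxcr2 and Cxcl2 had medians between 24.8 and 59.0, and for these genes some tumors gave 20 counts or fewer: 5 tumors for Cxcl2, 5 for Cxcr2, 3 for Csf3, 3 for Ltf and 1 for Csf3r. All 9 genes passed the filter of at least 20 normalized counts in at least 3 tumors, as did 689 of the 750 genes. Background, taken as the median of the 30 least counted genes, was 3 to 8 counts per tumor, and 2 tumors for Cxcl2, 1 for Cxcr2 and 1 for Csf3r lay within 2 times this level.

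In bulk tissue, fewer cells of a type and less RNA per cell cannot be told apart. Of the neutrophil markers, S100a8 carried most of the summed level, and the primary granule genes Elane and Mpo were low. Elane, neutrophil elastase, stood at 4.09 to 31.4 normalized counts. Mpo, myeloperoxidase, stood at 8.25 to 45.6 in 11 tumors and at 189 in olaparib tumor 1510. Camp, the cathelicidin of secondary granules, stood at 6.14 to 52.4. These transcript levels do not measure how many neutrophils a tumor held.

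**Figure D2:**
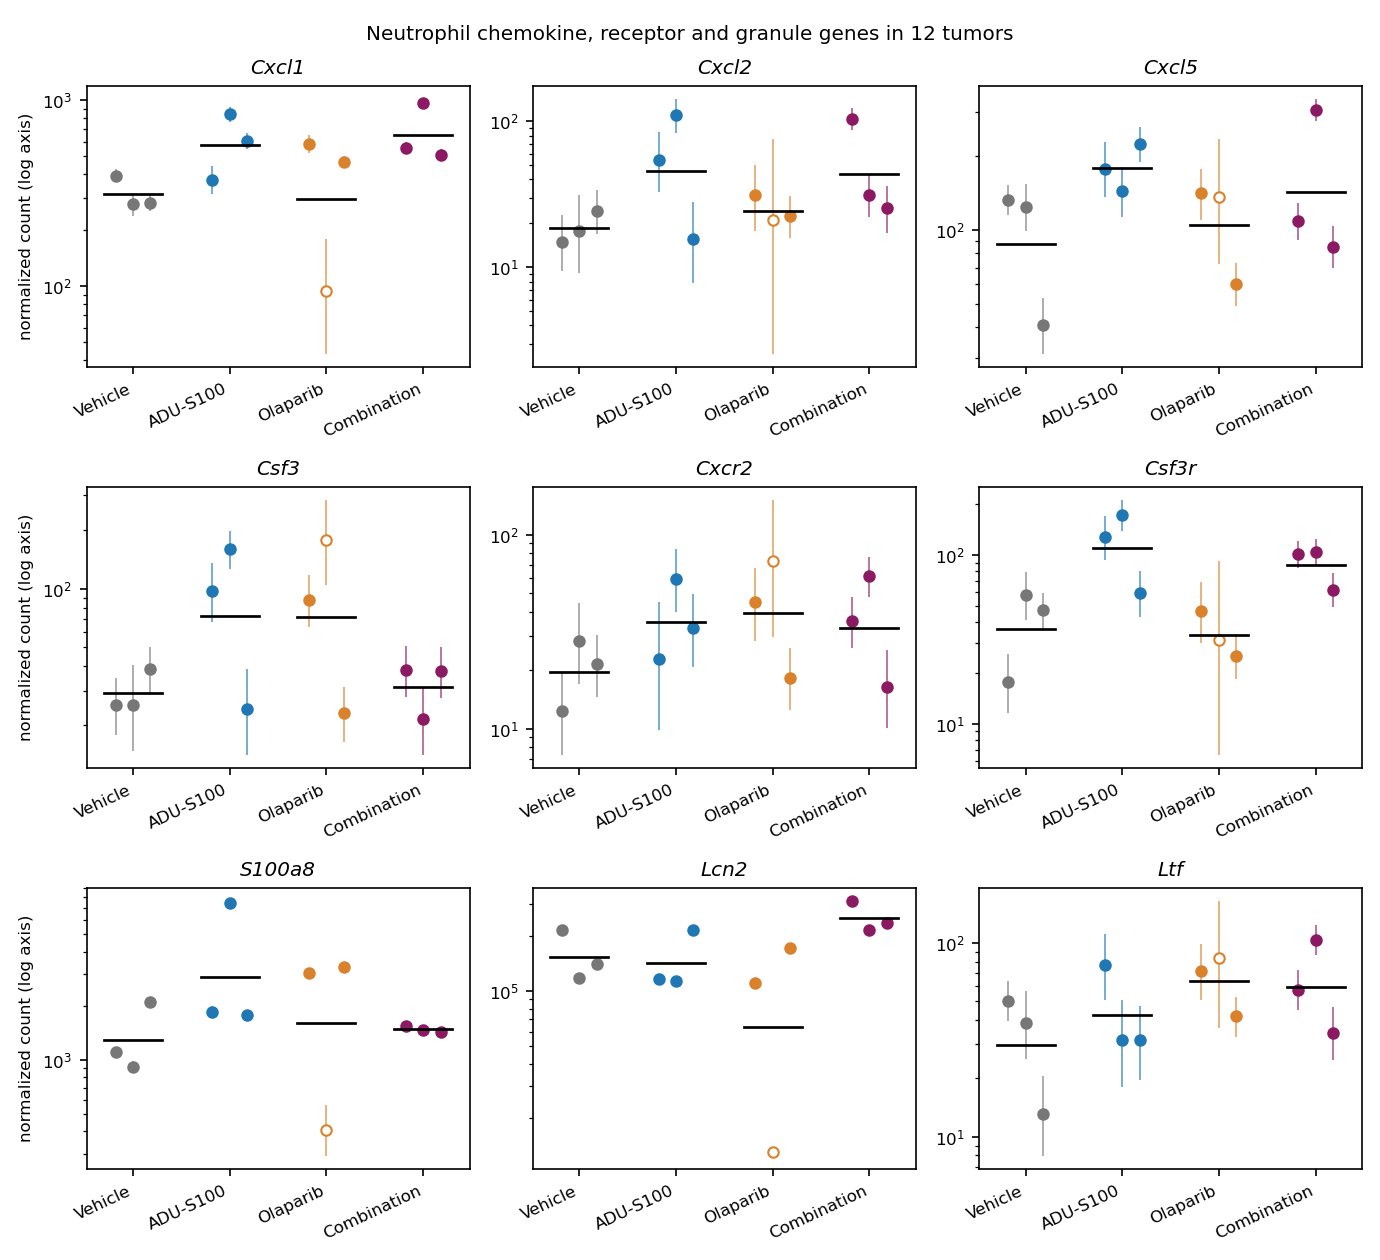
Normalized counts (vertical axes, log scale, a range of its own in each panel) of the 9 genes in the 3 tumors of each group, in order of tumor number; short black lines are geometric means, vertical bars are 95% Poisson intervals of the recovered counts, which cover counting error only, and the open circle is tumor 1517. Csf3r is higher in the 6 tumors that received ADU-S100 than in the 6 that did not, and tumor 1517 lies lowest of the 12 for Cxcl1, S100a8 and Lcn2 and highest for Csf3 and Cxcr2.

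The first question was which of the genes differed with each treatment. With limma over all 689 genes, none of the 9 passed an adjusted p of 0.05 in any of 8 comparisons, and neither did any other gene (0.00% called in each comparison). At an unadjusted p below 0.05, Csf3r was higher with the combination than with vehicle (7.55% of all genes) and with ADU-S100 than with vehicle (4.64%). Csf3r and Lcn2 were higher with the combination than with olaparib (4.50%), Csf3r and Cxcl1 were higher in the mean effect of ADU-S100 over both olaparib settings (3.05%), and Csf3 was lower in the interaction of the drugs (62 of 689 genes, 9.0%). None of the 9 was past it in olaparib against vehicle (5.81% higher, 1.45% lower), the combination against ADU-S100 (4.50% higher, 4.64% lower) or the mean effect of olaparib (6.10% higher, 1.45% lower). Other tests moved these unadjusted calls. The t-test of the study's methods called Cxcl1, not Csf3r, in the combination against vehicle, and no member in ADU-S100 against vehicle. edgeR called no member in the first, and Csf3r in the second with the authors' factors but not with its own scaling. Each called Csf3r, and not Lcn2, in the combination against olaparib. Differences are therefore described by their size, their standard error and the order of the tumors.

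Csf3r showed the clearest pattern. It encodes the receptor for G-CSF, which sits on neutrophils and their precursors and carries the signal for their production and survival. Its normalized counts were 17.7, 58.0 and 47.1 in the vehicle tumors and 128, 173 and 59.9 in the ADU-S100 tumors. They were 46.8, 31.4 and 25.3 in the olaparib tumors and 101, 105 and 62.3 in the combination tumors. Every tumor that received ADU-S100 lay above every tumor that did not, and Csf3r was the 1 gene of 689 for which this held (0.145%). The gap was narrow: the lowest of the 6 treated tumors, 1513, rested on 42 counts (95% Poisson interval 43.2 to 81.0 normalized counts) and the highest of the other 6, 1529, on 39 counts (41.2 to 79.3).

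Averaged over the settings without and with olaparib, Csf3r was higher with ADU-S100 by 1.46 on the log2 scale (SE 0.38, limma unadjusted p = 0.00279, adjusted p = 0.999), the smallest unadjusted p of the 689 genes. The difference was 1.56 (SE 0.54) against vehicle, a 2.95-fold difference in the fit, with adjusted p = 0.809. It was 1.36 (SE 0.54) between the combination and olaparib, with adjusted p = 0.594, and 1.23 (SE 0.54) between the combination and vehicle, with adjusted p = 0.608. Leaving out vehicle tumor 1269 moved the difference from vehicle to 1.06 for ADU-S100 and to 0.73 for the combination. With background subtracted, the mean effect was 2.22 and the difference between the combination and olaparib 2.80, where tumor 1517 had 3 counts of Csf3r, its background level. The levels in ADU-S100 and combination tumors overlapped.

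Csf3, which encodes G-CSF itself, had another order of tumors than its receptor. Its normalized counts were 25.2, 25.3 and 38.8 in the vehicle tumors, 96.8, 159 and 24.3 with ADU-S100, 87.7, 178 and 23.0 with olaparib, and 38.1, 21.4 and 37.7 with the combination. In each single-drug group 2 tumors were high and 1 lay at the vehicle level, and the combination tumors overlapped the vehicle tumors. The fitted difference from vehicle was 1.28 (SE 0.78, adjusted p = 0.809) with ADU-S100 and 1.27 (SE 0.78, adjusted p = 0.582) with olaparib. The first was 0.72 without ADU-S100 tumor 1512 and 2.05 without 1513, and the second was 0.61 without olaparib tumor 1517 and 2.06 without 1521. The interaction, which compares the effect of ADU-S100 with olaparib to that without it, was -2.45 (SE 1.10, unadjusted p = 0.0478, adjusted p = 0.439), -1.79 without tumor 1517 and -3.24 without tumor 1521 (adjusted p = 0.0501).

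The Csf3 values moved with the scaling factor of the tumors. The high tumors rested on 34, 81, 45 and 17 counts, and the 4 had the largest factors of the 12. Over the 12 tumors the log2 level of Csf3 had a Pearson r of 0.80 with the log2 factor (Spearman rho 0.68), and 0.65 without the 2 tumors of most extreme factor. With the log2 factor as a covariate the interaction was -0.69, and the differences from vehicle were 0.51 with ADU-S100 and 0.36 with olaparib. The part of the factor in these results was not tested further. Lcn2 ran the other way, with r = -0.89 (rho -0.69, and -0.61 without the same 2 tumors), and Csf3r had r = 0.11 (rho 0.41, and 0.48 without them). Cxcr2 had r = 0.61 (rho 0.66, and 0.63 without them) and Cxcl5 r = 0.34 (rho 0.60, and 0.45). For the remaining genes r lay between -0.58 (Cxcl1, rho -0.07) and 0.41 (Ltf, rho 0.33).

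**Figure D3:**
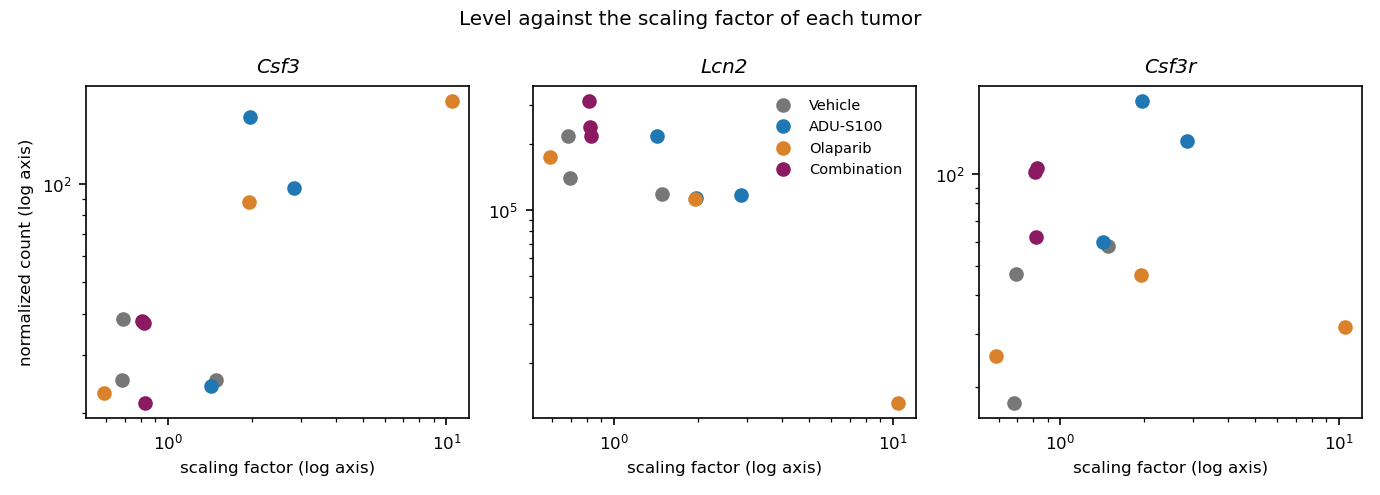
Normalized count (vertical axes, log scale) against the scaling factor, the value of 1 count in each tumor (horizontal axes, log scale), for Csf3, Lcn2 and Csf3r in the 12 tumors, coloured by treatment. Csf3 is highest and Lcn2 lowest at the largest factor, 10.5 in olaparib tumor 1517, and Csf3r has no such order.

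Of the CXCR2 ligands, Cxcl1 and Cxcl2 are neighbours in the mouse genome, made by epithelial, stromal and myeloid cells after inflammatory signals and carried into transcription by NF-kB. Their gene starts lie 12654 bases apart on chromosome 5 (RefSeq, GRCm38.p6). The 110 bases before each start are shown because both hold the same pair of motifs, printed in capitals: GGGAATTTCC, the first 10 bases of the longest run that the windows share (14 bases) and a sequence that NF-kB proteins bind, and ATAAAA, which resembles the core promoter element that positions the start of transcription. The windows lie at chr5:90891135-90891244 and chr5:90903789-90903898, both on the plus strand.
Cxcl1: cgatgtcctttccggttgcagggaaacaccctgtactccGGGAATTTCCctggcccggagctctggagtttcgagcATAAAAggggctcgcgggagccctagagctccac
Cxcl2: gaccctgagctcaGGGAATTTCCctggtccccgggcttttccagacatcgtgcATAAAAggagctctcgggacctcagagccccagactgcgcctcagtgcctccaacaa

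GGGAATTTCC began 71 bases before the start in Cxcl1 and 97 bases before it in Cxcl2. ATAAAA began 34 bases before the start in Cxcl1, 57 in Cxcl2, 59 in Lcn2 and 29 in S100a8. Whether it positions the listed starts was not tested. Searched on both strands in windows of 110 bases, it occurred in 13 of 32851 RefSeq promoters (0.0396%), ATAAAA in 7.68%, and both in 3 promoters (0.00913%). For comparison, the window of Lcn2 at chr2:32387740-32387849 on the minus strand holds ATAAAA alone, and that of Csf3r at chr4:126024549-126024658 on the plus strand holds neither.
Lcn2: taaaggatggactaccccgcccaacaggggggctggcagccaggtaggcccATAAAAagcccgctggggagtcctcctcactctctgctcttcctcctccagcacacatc
Csf3r: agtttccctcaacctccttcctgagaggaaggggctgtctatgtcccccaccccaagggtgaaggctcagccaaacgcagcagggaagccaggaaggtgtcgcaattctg
The windows of S100a8, which holds ATAAAA, and of Cxcr2 and Ltf, which hold neither motif, were searched as well. Of the 9 genes, 7 had a promoter entry to search, and Cxcl5 and Csf3 had none. A match in letters says nothing of whether a factor was bound in these tumors.

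Cxcl1 normalized counts were 394, 277 and 279 in the vehicle tumors, 373, 839 and 604 with ADU-S100, 584, 94.3 and 467 with olaparib, and 555, 962 and 508 with the combination. The 3 combination tumors lay above the 3 vehicle tumors, and the other groups overlapped. The difference between the combination and vehicle was 1.05 (SE 0.64, adjusted p = 0.731). Over both olaparib settings ADU-S100 tumors were higher by 1.0 (SE 0.45, limma adjusted p = 0.999), and by 0.59 when olaparib tumor 1517, with 9 counts of Cxcl1, was left out.

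Cxcl2, a chemokine of activated myeloid cells, had normalized counts of 15, 17.8 and 24.2 in the vehicle tumors, 54.1, 110 and 15.7 with ADU-S100, 31.2, 21.0 and 22.4 with olaparib, and 105, 31.3 and 25.4 with the combination. ADU-S100 tumor 1512 and combination tumor 1251 were high, with 56 and 129 counts, and the combination tumors lay just above the vehicle tumors. ADU-S100 differed from vehicle by 1.25 (SE 0.69, adjusted p = 0.809) and the combination by 1.19 (SE 0.69, adjusted p = 0.705). Without tumor 1512 the first was 0.62 and without 1513 it was 1.99, and without tumor 1251 the second was 0.57.

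Cxcl5, the CXCR2 ligand most associated with epithelium, had normalized counts of 132, 123 and 40.9 in the vehicle tumors, 177, 143 and 223 with ADU-S100, 140, 136 and 60.1 with olaparib, and 109, 308 and 85.3 with the combination. ADU-S100 and vehicle tumors did not overlap, by 143 against 132, and the combination tumors reached from below the higher vehicle tumors to above every other tumor. ADU-S100 differed from vehicle by 1.02 (SE 0.61, adjusted p = 0.809), and by 0.47 without vehicle tumor 1536.

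Cxcr2, the receptor for these 3 ligands, had normalized counts of 12.3, 28.2 and 21.5 in the vehicle tumors, 22.8, 58.9 and 32.8 with ADU-S100, 44.8, 73.4 and 18.3 with olaparib, and 35.6, 61.0 and 16.4 with the combination. All groups overlapped, and the counts behind these values were 7 to 74. The differences from vehicle were 0.82 with ADU-S100 (adjusted p = 0.809), 0.97 with olaparib (adjusted p = 0.587) and 0.73 with the combination (adjusted p = 0.946), with an SE of 0.63 for each. Leaving out 1 tumor moved the first to 0.46 (without 1512), the second to 0.53 (without 1517) or 1.5 (without 1521), and the third to 0.29 (without 1270) or 1.21 (without 1539). With the log2 scaling factor as a covariate the first was 0.32 and the second 0.39.

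S100a8 encodes a subunit of calprotectin, an abundant cytosolic protein of neutrophils, also made by monocytes and inflamed epithelium. Its normalized counts were 1106, 910 and 2104 in the vehicle tumors, 1846, 7425 and 1779 with ADU-S100, 3032, 409 and 3294 with olaparib, and 1541, 1458 and 1436 with the combination. The combination tumors lay close together, below every ADU-S100 tumor and within the range of the vehicle tumors. The fitted difference was -0.97 (SE 0.80, adjusted p = 0.657) between the combination and ADU-S100, and -0.29 without ADU-S100 tumor 1512. ADU-S100 differed from vehicle by 1.17 (SE 0.80, adjusted p = 0.809), and by 0.50 without tumor 1512.

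Lcn2 normalized counts were 217625, 118171 and 140129 in the vehicle tumors, 116688, 113218 and 217847 with ADU-S100, 111497, 13099 and 173281 with olaparib, and 312652, 216831 and 237588 with the combination. The combination tumors lay above the olaparib tumors and overlapped the vehicle and ADU-S100 tumors. The combination differed from olaparib by 2.0 (SE 0.79, adjusted p = 0.594), and olaparib from vehicle by -1.28 (SE 0.79, adjusted p = 0.582). Without tumor 1517 these values were 0.86 and -0.14, and with the log2 scaling factor as a covariate 0.68 and -0.07. Without olaparib tumor 1521 the first was 2.72, with an adjusted p of 0.0501, and the second was -2.0.

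Ltf encodes lactoferrin, an iron-binding protein of neutrophil specific granules and of milk. Its normalized counts were 50.5, 38.7 and 13.2 in the vehicle tumors, 76.9, 31.4 and 31.4 with ADU-S100, 72.1, 83.8 and 41.8 with olaparib, and 57.5, 104 and 34.4 with the combination. All groups overlapped. Olaparib differed from vehicle by 1.07 (SE 0.61, adjusted p = 0.582) and the combination by 0.97 (SE 0.61, adjusted p = 0.767), and without vehicle tumor 1536 these were 0.51 and 0.41.

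**Figure D4:**
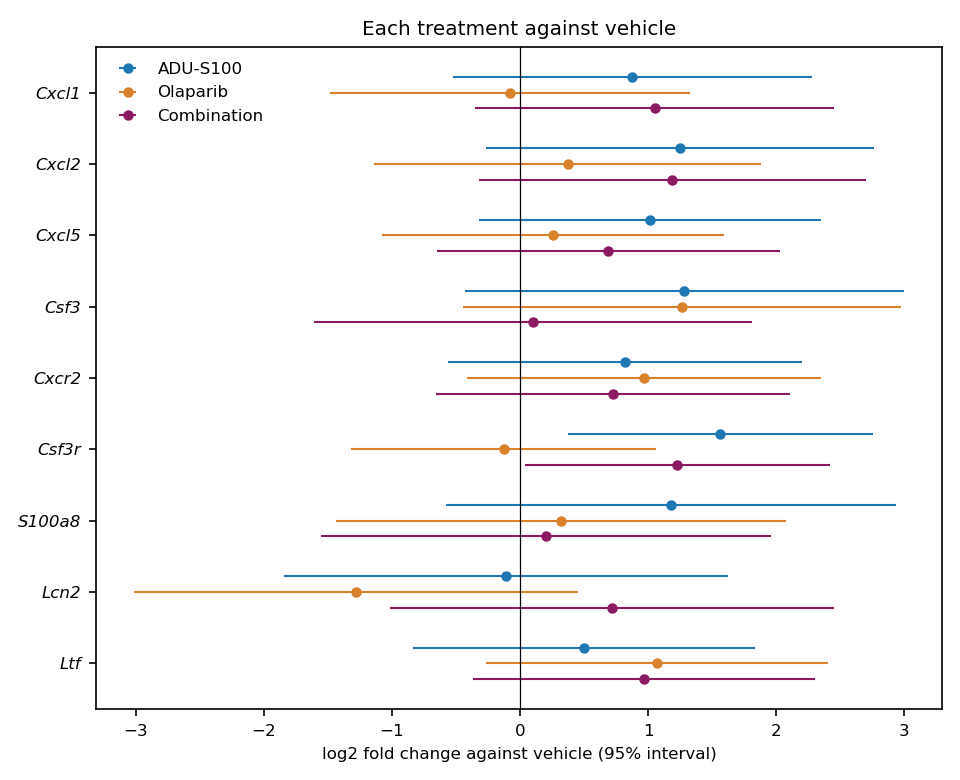
Log2 fold change against vehicle (horizontal axis) of the 9 genes for ADU-S100, olaparib and the combination, 3 tumors a group; bars are 95% intervals from limma. The intervals of Csf3r with ADU-S100 (0.37 to 2.75) and with the combination (0.04 to 2.42) lie above 0, before adjustment over 689 genes, and all others include 0.

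Over the 9 genes, the fitted mean was higher than vehicle for 8 with ADU-S100 (all genes 78.2%), for 6 with olaparib (74.6%) and for all 9 with the combination (65.3%). The median difference of the 9 was 1.02 with ADU-S100 against 0.44 for all 689 genes, 0.32 with olaparib against 0.45, and 0.73 with the combination against 0.21. With each tumor scaled to the same median over all genes, which takes out these shifts, 8, 4 and 7 of the 9 were higher than vehicle in the same order, with medians of 0.52, -0.05 and 0.47, and Csf3 and S100a8 were no longer higher with the combination. Tumors of the 2 groups did not overlap for 2 genes in ADU-S100 against vehicle, Csf3r and Cxcl5 (13.9% of all genes higher in this way), and for 3 in the combination against vehicle, Csf3r, Cxcl1 and Cxcl2 (18.4%). They did not overlap for Csf3r and Lcn2 in the combination against olaparib (11.0% higher), for S100a8 in the combination against ADU-S100 (20.9% lower), and for no gene of the 9 in olaparib against vehicle (3.77% higher and 1.02% lower). The comparisons with vehicle share the 3 vehicle tumors. The fitted mean was higher for 3 of the 9 in the combination against ADU-S100 (40.3% of all genes; 5 with equal medians) and for 5 in the combination against olaparib (41.4%; also 5). Averaged over the other drug, it was higher for all 9 with ADU-S100 (65.9%; 8 with equal medians) and for 5 with olaparib (60.7%; 3 with equal medians), and the interaction was above 0 for 2, Cxcl1 and Lcn2 (30.9%; 5 with equal medians).

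The effect of ADU-S100 could be read in 2 comparisons with no tumor in common, ADU-S100 against vehicle and the combination against olaparib. The mean was higher in both for 4 of the 9 genes, Csf3r, Cxcl1, Cxcl2 and Cxcl5, against 25.5% of all 689. In the combination against olaparib, Cxcl1 moved from 1.13 to 0.31 without tumor 1517, Cxcl2 from 0.82 to 0.20 without combination tumor 1251, and Cxcl5 from 0.43 (SE 0.61) to -0.12 without combination tumor 1270. The count of 4 was 3 without tumor 1270, 6 without 1517 or 1539, and 4 or 5 without any other tumor. The 4 genes are the 3 chemokines and the G-CSF receptor, and with equal medians the mean was again higher in both comparisons for each of the 4. The effect of olaparib, read in olaparib against vehicle and in the combination against ADU-S100, was higher in both for 1 of the 9, Ltf, against 27.7% of all genes.

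**Figure D5:**
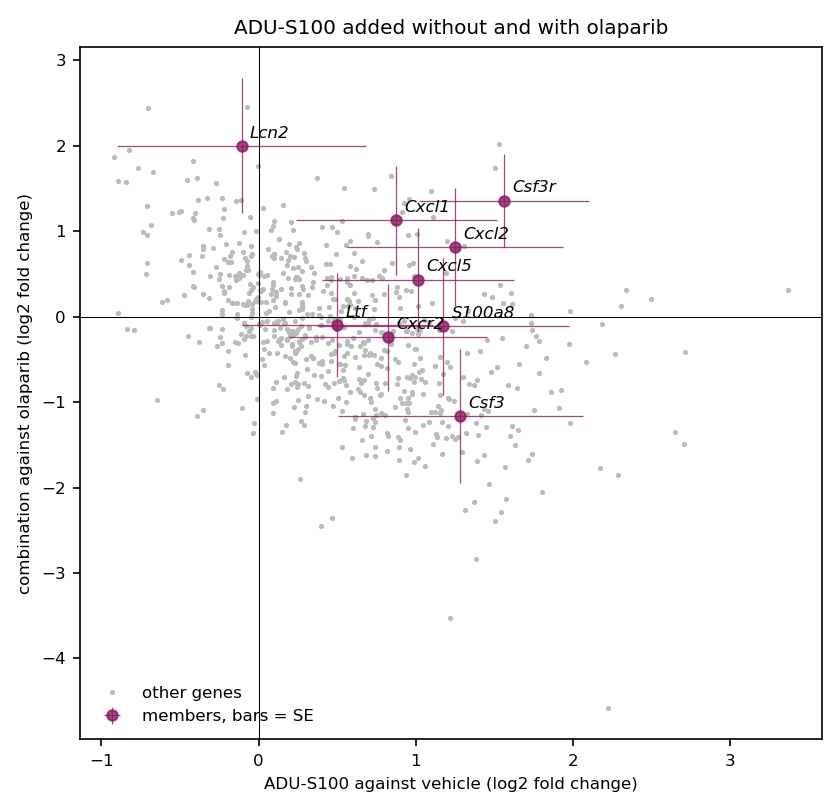
Log2 fold change of ADU-S100 against vehicle (horizontal axis) and of the combination against olaparib (vertical axis) for 689 genes, 3 tumors a group; the 9 genes are labelled with bars of 1 SE and the other genes are grey. Csf3r, Cxcl1, Cxcl2 and Cxcl5 lie above 0 on both axes, and Csf3 lies at 1.28 and -1.16 (-0.51 for the latter without tumor 1517).

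The 9 genes did not form 1 group across the tumors. Of their pairs, the highest Pearson r over the 12 tumors was 0.78 between Cxcl1 and Lcn2, which was 0.26 without tumor 1517. Cxcl2 and Csf3r had r = 0.77, and 0.77 without that tumor. The tumors share treatments, so these values and those that follow describe the 12 tumors only.

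Among all other genes, those most like Cxcl2 were Il1b, the inflammatory cytokine interleukin-1 beta (r = 0.84), and Csf3r (0.77). Those most like Csf3r were Ccr1, a chemokine receptor of neutrophils and monocytes (0.81), Ncf4, a subunit of the NADPH oxidase of phagocytes (0.80), and Il1b (0.79). Leaving out tumor 1517 moved these 5 values to between 0.77 and 0.86.

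Those most like Cxcl5 were Cd44 (0.78), Bcl2 (0.75) and Sh2d1a (0.74). Those most like Cxcr2 were the lymphocyte genes Cd8a (0.83), Gzmb (0.78) and Tnfsf14 (0.77), each of at most 43 counts in a tumor. Those most like Csf3 were Il10 (0.92), Csf2 (0.92) and Tnfrsf9 (0.90), of 4 to 25 counts.

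Those most like Lcn2 were Spp1 (0.96, and 0.79 without tumor 1517), Il1rap (0.93 and 0.53) and Casp1 (0.92 and 0.70). Those most like Ltf were the complement gene C2 (0.91), the epithelial mucin gene Muc1 (0.90) and the MHC class I gene H2-T23 (0.89), with 0.89 to 0.95 without tumor 1517. Those most like Cxcl1 were Cebpb (0.84 and 0.53), Lamp1 (0.79 and 0.41) and Spp1 (0.79 and 0.34). Those most like S100a8 were Birc5, a gene of dividing cells (0.81 and 0.66), Cxcl1 (0.71 and 0.45) and Mif (0.67 and 0.67).

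Around these genes stand the signals that induce them. Of 20 such genes in the table, inflammatory cytokines such as interleukin-17, interleukin-1, tumor necrosis factor and GM-CSF, some of their receptors, and regulators such as NF-kB subunits, 16 passed the filter and none passed the adjusted test. At an unadjusted p below 0.05, 1 was higher with ADU-S100 (4.64% of all genes), 3 with olaparib (5.81%) and 1 with the combination (7.55%) than with vehicle. The median difference was 0.75 with ADU-S100 (all genes 0.44), 0.93 with olaparib (0.45) and 0.16 with the combination (0.21). The tumor necrosis factor gene Tnf was 43.6 to 71.6 in vehicle and 83.8 to 232 in olaparib tumors (1.20, SE 0.48, adjusted p = 0.582, and 0.73 without olaparib tumor 1510). Nfkb1, the NF-kB subunit gene, was 651 to 1045 and 1141 to 2305 (0.99, SE 0.38, adjusted p = 0.577). With edgeR and its own scaling of the recovered counts, the Nfkb1 difference was 0.50. The groups did not overlap for either gene (3.77% of all genes higher in this way), but both were named for their small p in these tumors. Csf2, which encodes GM-CSF, was 9.07 to 15.4 in combination and 14.7 to 73.4 in olaparib tumors, from 7 to 25 counts (-1.31, SE 0.55, adjusted p = 0.594, and -0.72 without tumor 1517).

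Of 21 further genes of neutrophil chemotaxis and adhesion in the table, 20 passed the filter and none passed the adjusted test. At an unadjusted p below 0.05, 5 were higher with ADU-S100 (4.64% of all genes), 2 with olaparib (5.81%) and 3 with the combination (7.55%) than with vehicle. Fpr2, a formyl peptide receptor of neutrophils, was 24.9 to 41.6 in vehicle and 101 to 167 in combination tumors (1.76, SE 0.48, adjusted p = 0.278). Itgal, the integrin alpha chain of LFA-1 on lymphocytes and neutrophils, was 68.6 to 73.7 and 178 to 203 (1.41, SE 0.42, adjusted p = 0.278). Neither gene had overlapping groups (18.4% of all genes higher in this way), but both were named for their small p in these tumors. C3ar1, the receptor for complement fragment C3a, was 661 to 799 in combination and 1044 to 6030 in ADU-S100 tumors (-1.73, SE 0.64, adjusted p = 0.492, and -1.07 without ADU-S100 tumor 1506).

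Of 25 further granule, oxidase and receptor genes of neutrophils and other myeloid cells, 24 passed the filter and none passed the adjusted test. At an unadjusted p below 0.05, 1 was higher with ADU-S100 (4.64% of all genes), 1 with olaparib (5.81%) and 3 with the combination (7.55%) than with vehicle. Camp was 6.14 to 16.6 in vehicle and 27.1 to 39.9 in ADU-S100 tumors, from 8 to 24 counts (1.61, SE 0.54, adjusted p = 0.809). Cybb, the catalytic subunit of the phagocyte NADPH oxidase, was 904 to 945 in combination and 241 to 704 in olaparib tumors (1.27, SE 0.46, adjusted p = 0.594). Ptgs2, the inducible cyclooxygenase, was 16.5 to 91.0 in combination and 238 to 493 in ADU-S100 tumors (-2.83, SE 0.91, adjusted p = 0.492). With the first digits of the tumor numbers as a block, this was -1.41 (SE 0.88, adjusted p = 0.998). Numbers begin with 12 in 2 of the 3 combination tumors (1251 and 1270) and vehicle tumor 1269, and in no ADU-S100 or olaparib tumor. The labels leave this numbering unexplained, and it is unbalanced in every comparison with the combination.

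Markers of other cell types were summed for each tumor, and none of them passed the adjusted test. At an unadjusted p below 0.05, 4 of 5 T cell markers were higher with the combination than with vehicle (7.55% of all genes), and 4 of 6 stromal markers were lower with olaparib than with vehicle (1.45%). The 5 T cell markers summed to 79.0 to 161 in vehicle, 131 to 316 in ADU-S100, 114 to 482 in olaparib and 275 to 441 in combination tumors. The 6 stromal markers summed to 18254 to 93807, 36611 to 60425, 7160 to 30621 and 15440 to 29886 in the same order. The 7 macrophage and monocyte markers summed to 1320 to 5392, 2397 to 5714, 1937 to 4517 and 2440 to 2864, and the general leukocyte marker Ptprc stood at 152 to 510, 287 to 1003, 193 to 456 and 390 to 423. Of 4 B cell markers 1 passed the filter. The part of these cells in the levels of the 9 genes was not tested.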

How the data were processed

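The deposited signal values are normalized nCounter counts, which the authors made with nSolver by quality control, background correction and scaling to positive controls and to the geometric mean of housekeeping genes. Whole counts were recovered from the deposited values by the step of which low values are multiples, taken as whole within 0.01, and 100% of the 631 to 747 values checked per tumor were whole. The raw counts were not used here, so totals and Poisson intervals rest on this recovery. Counts totaled 106206 to 1519471 per tumor, which sets the precision of low genes. Poisson intervals cover counting error only, and deposited values at the floor of 1, at most 3 genes in a tumor, were set to 0 counts although they could stand for other low counts.

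Tumors were grouped by their labelled agent. Genes with at least 20 normalized counts in at least 3 tumors were kept (689 of 750). log2(normalized count + 1) was fitted with limma 3.58.1 in R 4.3.3, with a mean for each group over 12 tumors, two-sided, and Benjamini-Hochberg adjustment over all 689 genes at 0.05. Fold changes on this scale understate those of low genes. Scripts were tested on simulated data. The 9 genes and all lists were chosen with earlier results of these data known. From each list the 3 genes with the smallest unadjusted p over 5 comparisons of groups were named, as none passed adjustment, and for each of the 9 genes the 3 genes of highest Pearson r, of which 1 is not reported here. Alternatives were a pseudocount of 10, no filter or a filter at 50, equal medians, a fit on the 2 groups, the first digits of the tumor numbers as a block, the log2 scaling factor as a covariate, background subtraction, the methods' t-test, edgeR 4.0.16 on recovered counts, and leaving out each tumor. Promoter windows came from RefSeq (GRCm38.p6). Ly6g and S100a9 were not analysed here.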

Additional observations from a re-analysis of the deposited data

Results flagged for a closer look

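S100a8 stood out because the tumors given ADU-S100 lay on opposite sides of their comparison group without and with olaparib. All 3 ADU-S100 tumors (1779 to 7425 normalized counts) lay above the geometric mean of the vehicle tumors, 1284, and all 3 combination tumors (1436 to 1541) lay below that of the olaparib tumors, 1599, but inside their range of 409 to 3294. The combination differed from olaparib by -0.11 (SE 0.80), which turned to 0.35 without olaparib tumor 1510 and 0.41 without 1521, so the opposite sides rest on these tumors. The effects differed by 1.29 on the log2 scale (interaction -1.29, SE 1.13), and the difference did not pass the limma test (unadjusted p = 0.279, adjusted p = 0.611). It was -2.27 without olaparib tumor 1517, which lay at 409, -0.61 without ADU-S100 tumor 1512, -3.18 with the log2 scaling factor as a covariate and -0.70 with equal medians.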

How the results depend on the processing

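No member of the 9 passed an adjusted p of 0.05 under any of the 23 alternatives (lowest 0.0501, for Lcn2 in the combination against olaparib without olaparib tumor 1521). Of 35 differences of the 9 genes larger than their SE, 32 kept their direction under every alternative run. The 3 exceptions arose with the log2 scaling factor as a covariate: Lcn2 in the combination against ADU-S100 became -0.31 (from 0.83), the Lcn2 interaction -0.25 (from 2.11, which was 0.97 without olaparib tumor 1517 and 2.83 without 1521) and the Cxcr2 interaction 0.067 (from -1.07, which was -0.62 without 1517, -0.58 without combination tumor 1539 and -1.60 without 1521), and the cause was not tested. With equal medians, Csf3r in ADU-S100 against vehicle was 1.08. With the first digits of the tumor numbers as a block, Cxcl5 in the combination against vehicle was 0.36 (from 0.69) and Cxcl2 in the combination against olaparib 0.58 (from 0.82). Other values rose with the block: Cxcl5 in ADU-S100 against vehicle to 1.34 (from 1.02) and Ltf in olaparib against vehicle to 1.44 (from 1.07).

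Over all genes the calls rose from 0 in a few settings, in none of which a member of the 9 was called. The combination against vehicle gave 2 genes when fitted on the 2 groups (Cxcl11 and Gbp5), 3 with the methods' t-test under Benjamini-Hochberg adjustment, where the study used the stricter Benjamini-Yekutieli adjustment (Cxcl11, Gbp5 and Itgal, with 86 genes at an unadjusted p below 0.05) and 4 with the factor as covariate (Ccl22, Klra7, Slamf7 and Xcl1). The combination against ADU-S100 gave 1 gene, H2-Aa, with a pseudocount of 10, with a filter at 50 and with equal medians. Leaving out each tumor in turn gave 0 to 1 gene there (1 without 1506), 0 to 54 in the combination against olaparib, 0 to 55 in olaparib against vehicle and 0 to 86 in the interaction, the highest each without olaparib tumor 1521, and 0 elsewhere. Cybb in the combination against olaparib passed without that tumor (1.72, adjusted p = 0.0319). edgeR called 0 genes, with 21 to 124 at an unadjusted p below 0.05. No paired analysis was possible because no tumor number occurs in more than 1 group. With 3 tumors a group, spread and counts under 20 limit Cxcl2, Cxcr2, Csf3 and Ltf.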
